A study of Mus musculus with 2 samples.

Results

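The Kcnq1 and H19-Igf2 imprinted domain of mouse chromosome 7 was described here through 10 genes, which are Kcnq1ot1, Kcnq1, Cdkn1c, Phlda2, Slc22a18, Nap1l4, Ascl2, Tssc4, Igf2 and H19. A cytosine was taken as a member when it lay between 5 kb upstream of the start and the end of any of these genes in GENCODE M21, and 933 of the 1782730 listed CpG cytosines did so. Of these, 480 lay on the forward and 453 on the reverse strand, and 27 fell in both Kcnq1 and Kcnq1ot1, because Kcnq1ot1 is transcribed against Kcnq1 from within it. DNA methylation (%mCpG, the percentage of reads over a cytosine that were methylated) had been measured by reduced representation bisulfite sequencing (RRBS) in Xmas mESCs. This is a female mouse embryonic stem cell line of the C57/Bl6 strain in which GFP and mCherry reporters, driven by the Hprt promoter, mark different X chromosomes. Cells grown by the Keniry2022 culture method in 2i/LIF, for 7 passages by the sample labels (the study's text gives another number), were sorted by FACS into XX cells, which show both reporters, and XO cells, which have lost an X chromosome.

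There was 1 XX library and 1 XO library, so no difference has a replicate error and none was tested. Each difference is the XX value less the XO value, in percentage points, and an SD describes the spread over cytosines of 1 library, not over cultures. The table gave no read counts, so the depth behind each value is unknown, and it did not separate parental alleles. Percentages alone give no check of the karyotype or cell type labels.

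Imprinted genes are expressed from the copy inherited from 1 parent, and the choice is set by control regions whose DNA is methylated on the maternal or the paternal copy. In the Kcnq1 domain, the control region lies at the start of Kcnq1ot1 in an intron of Kcnq1. It is methylated on the maternal copy, and the long noncoding RNA that starts there on the paternal copy represses genes on both sides. In the neighbouring domain, the control region upstream of H19 is methylated on the paternal copy, and binding of CTCF to the unmethylated maternal copy keeps distal enhancers from Igf2.

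Over the 933 cytosines, mean methylation was 17.5% ± 22.8 (SD) in XX and 22.5% ± 25.8 (SD) in XO, a difference of -4.96 points. XX cells were lower at 457 cytosines (49.0%), higher at 297 (31.8%) and equal at 179 (19.2%), beside 53.5%, 26.4% and 20.2% on autosomes. Single cytosines at least 20 points lower in XX numbered 176, or 18.9% of the members, beside 22.5% of all listed cytosines. Those at least 20 points higher in XX numbered 70, or 7.50%, beside 3.68% of all listed cytosines. The XX mean was thus close to that over all autosomes (17.6%), whereas the XO mean lay below the autosomal 25.7%, and the autosomal difference was -8.11 points. Chromosome 7 as a whole had 17.5% in XX and 25.3% in XO. The H19-Igf2 side, with 257 cytosines, and the Kcnq1 side, with 676, had nearly the same difference (-5.30 and -4.84 points). Kcnq1 carried much of it, as the 703 cytosines outside Kcnq1 differed by -1.95 points.

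RRBS reads start at CCGG sites, and every member cytosine lay within 73 bp of a CCGG in the direction from which its strand is read. Cytosines of 1 strand that share such a site can rest on the same reads and are called a read group here. The 933 cytosines fell into 255 read groups with a median of 3 cytosines. Within the 144 groups of 3 or more, the median SD of the difference was 4.97 points, against an SD of 16.8 points between the group means, so cytosines of a group lay closer to each other than the groups did. With each read group counted once, XX had 21.8% and XO 29.2% (-7.42 points), beside 23.9% and 36.3% (-12.4 points) on autosomes. Of the member groups, 62.4% were lower and 29.4% higher in XX, beside 69.5% and 23.8% on autosomes. At 20 points, 63 of the 255 groups were lower and 14 higher in XX. Of 535755 autosomal groups, 171577 were lower and 15056 higher by that much. The 70 cytosines at least 20 points higher are thus not separate readings.

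The start of Kcnq1ot1 (chr7:143203458-143296549, reverse strand, GRCm38) was read only inside the transcript, in a CpG-rich stretch that is shown because it holds all 21 cytosines listed within 2 kb of the start. The forward strand is printed, capitals mark listed cytosines (G where the cytosine is on the reverse strand), and the start lies to the right of the last base.
Kcnq1ot1 (chr7:143295373-143295620): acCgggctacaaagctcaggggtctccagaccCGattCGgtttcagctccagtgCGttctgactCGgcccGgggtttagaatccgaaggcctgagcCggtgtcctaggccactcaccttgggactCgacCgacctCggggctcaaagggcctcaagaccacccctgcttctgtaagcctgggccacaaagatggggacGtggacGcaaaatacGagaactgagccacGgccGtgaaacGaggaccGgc

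Only the rightmost 7 of these cytosines lay within 1 kb of the start. All 7 were on the reverse strand and in 1 read group of 48 bp, 931 to 978 bp inside the transcript. Their mean was 23.6% ± 2.44 (SD) in XX and 64.3% ± 19.7 (SD) in XO, a difference of -40.7 points. From 978 bp towards the start, the XX values were 25%, 25%, 25%, 25%, 25%, 20% and 20%. The corresponding XO values were 25%, 75%, 50%, 75%, 75%, 75% and 75%. Hence 6 of the 7 were at least 25 points lower in XX and the cytosine farthest from the start was at 25% in both libraries.

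The 14 cytosines that followed spanned 134 bp, 1041 to 1174 bp inside the transcript, and did not share this difference. They had 15.2% ± 4.89 (SD) in XX and 17.0% ± 5.98 (SD) in XO (-1.84 points), with 8 lower and 6 higher in XX. XX values ran from 3.23% to 20.6% and XO values from 7.41% to 30.2%, so the libraries overlapped on both strands. These 14 formed 3 read groups, of which the forward ones differed by 4 and -5.24 points and the reverse one by -4.95 points. Widening the start window to 2 kb therefore changed the value from -40.7 to -14.8 points (17.98% in XX, 32.8% in XO), or to -11.7 points with each of the 4 read groups counted once. Among 21246 gene starts with at least 3 cytosines, 258 had a difference at or below -40.7 points, and the median over the 2354 starts whose XO mean lay between 50% and 80% was -23.5 points.

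**Figure D1:**
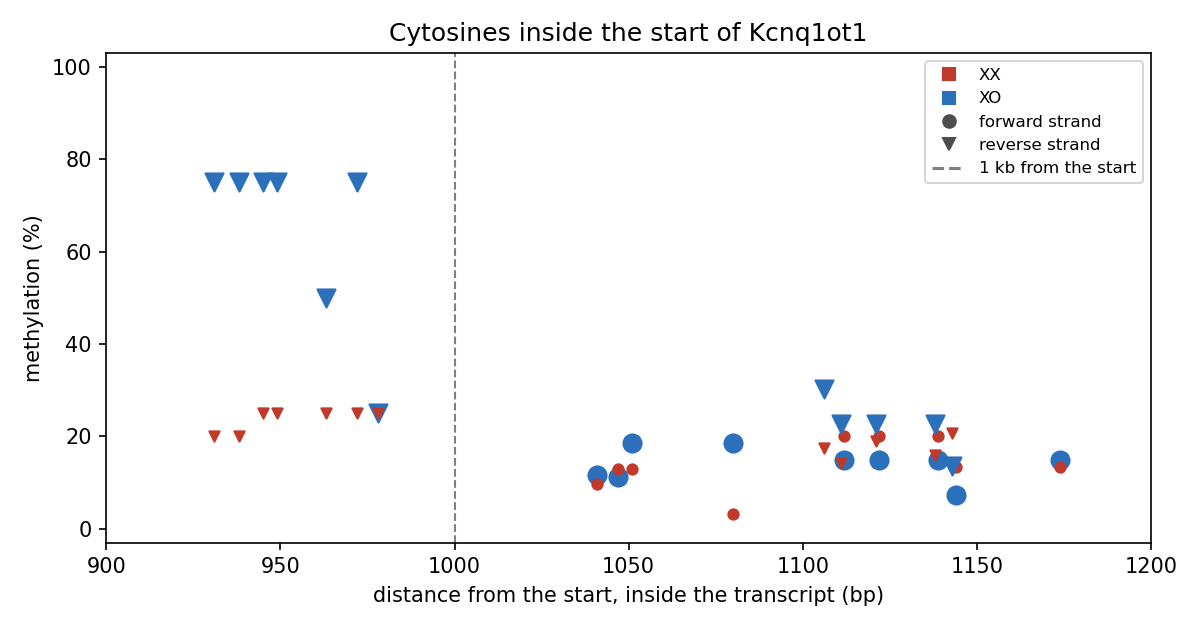
Methylation (%) of each listed cytosine against its distance (bp) inside the transcript from the Kcnq1ot1 start, for XX (red, smaller) and XO (blue, larger), with the forward strand as circles and the reverse strand as triangles. Left of the dashed line at 1 kb, 6 of 7 XO triangles lie at 50% or 75% and the XX triangles at 20% or 25%, while right of it both libraries stay between 3.23% and 30.2%.

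Zfp57, a zinc finger protein that protects methylated control regions, recognises TGCCGC when it is methylated. This hexamer was searched on both strands, with overlaps allowed. It occurred 0 times in the printed stretch (14.8% of 21938 windows of the same length at starts of coding genes held it) and 3 times within 2 kb of the Kcnq1ot1 start (51.5% of windows of 4001 bp held it). All 3 lay towards the start, at 53, 88 and 125 bp from the nearest listed cytosine. The RefSeq promoter of Kcnq1ot1 in the same build held 9 CpGs, 0 CCGG sites and 0 listed cytosines.

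Along the rest of the Kcnq1ot1 transcript, 6 cytosines were listed, between 6726 and 36099 bp from the start and each in its own read group. They averaged 25.5% ± 22.4 (SD) in XX and 46.7% ± 21.6 (SD) in XO (-21.2 points). The largest gap, 8.70% against 58.8%, was on the forward strand 30559 bp in, and 1 cytosine, 9029 bp in, was higher in XX (58.3% against 52.6%). The whole gene, with 27 cytosines in 10 read groups, had 19.6% in XX and 35.9% in XO (-16.2 points). By strand the difference was -6.44 points over 12 forward and -24.1 points over 15 reverse cytosines.

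Kcnq1 (chr7:143106362-143427042, forward strand) encodes a voltage-gated potassium channel and had the most listed cytosines after Igf2, with 230 in 90 read groups. Methylation was 25.1% ± 21.7 (SD) in XX and 39.3% ± 26.0 (SD) in XO (-14.2 points), similar on the forward (-12.5) and the reverse strand (-15.8). XX was lower at 159 cytosines and higher at 56, and lower in 69 of the 90 read groups. On autosomes, 53.5% of cytosines and 69.5% of read groups were lower in XX. The CpG-rich start, with 43 cytosines, was low in both libraries (5.63% in XX, 9.24% in XO). The body was not. Between the first 5 kb and the end of Kcnq1ot1, 42 cytosines had 32.2% ± 21.4 (SD) in XX and 55.2% ± 23.6 (SD) in XO (-23.0 points). Between the Kcnq1ot1 start and the end of Kcnq1, outside the Kcnq1ot1 transcript, 118 cytosines had 30.9% ± 21.9 (SD) and 45.3% ± 21.5 (SD) (-14.4 points). The part of Kcnq1 covered by Kcnq1ot1 had a mean difference (-16.2 points over 27 cytosines) close to that of the rest of its body (-16.7 points over 160 cytosines). The parts were unlike, however. Of the 27, 7 were the single read group at -40.7 points. In the covered part 77.8% of cytosines had 10 or more CpGs within 100 bp, against 24.4% in the rest.

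Cytosines were also classed by the number of CpGs within 100 bp, and Kcnq1 was lower in XX in each class. With 10 or more such CpGs, the whole of Kcnq1 differed by -12.2 points from an XO level of 28.2%. Autosomal cytosines of that class had 8.42% in XX and 10.9% in XO (-2.50 points). Outside its first 5 kb, Kcnq1 cytosines of that class (60 cytosines) had 23.3% in XX and 41.7% in XO (-18.4 points). These include the 21 of the printed Kcnq1ot1 stretch. The autosomal class kept its CpG-rich gene starts, so the value without the first 5 kb has no like set beside it. With 5 to 9 CpGs the difference was -19.99 points in Kcnq1 and -14.8 points on autosomes. With fewer than 5 it was -10.6 points in Kcnq1 and -18.05 points on autosomes.

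The 10 kb window with the largest difference among those with member cytosines lay in a Kcnq1 intron, centred 111 kb from the Kcnq1ot1 start towards the Kcnq1 start. Its 10 cytosines fell in 66 bp and are shown because both strands were read there.
Kcnq1 intron (chr7:143186485-143186560): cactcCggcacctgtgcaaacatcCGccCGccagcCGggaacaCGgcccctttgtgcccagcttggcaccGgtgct

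This stretch averaged 26.3% in XX and 75.1% in XO (-48.8 points). On the forward strand XX values ran from 8.33% to 50% and XO values from 53.3% to 79.2%. On the reverse strand they ran from 11.4% to 52.9% in XX and from 60.7% to 93.8% in XO. The libraries did not overlap on either strand, and the differences ran from -82.0 to -29.2 points. The adjacent window had 22.6% in XX and 52.2% in XO over 6 cytosines (-29.6 points). Another, 79.0 kb from the Kcnq1ot1 start towards the Kcnq1 end, had 27.7% and 59.9% over 18 (-32.2 points).

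H19 (chr7:142575529-142578143, reverse strand) is a noncoding RNA of the maternal copy. In the stretch 2 to 4 kb upstream of it, which holds the paternally methylated control region, only 2 cytosines were listed, and the sequence around them is shown for that reason.
H19 upstream (chr7:142581122-142581208): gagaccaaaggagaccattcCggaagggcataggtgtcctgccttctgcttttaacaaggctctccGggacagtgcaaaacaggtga

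The forward one, at chr7:142581142, had 28.2% in XX and 51.6% in XO, and the reverse one, at chr7:142581188, had 8.11% and 33.3%. Both were therefore lower in XX, by differences of -23.4 and -25.2 points, on different strands and in different read groups. The CTCF core GGNGGCAG, searched on both strands, occurred 5 times in the 2001 bp stretch (56.5% of windows of that length at coding starts held it), and the nearest was 375 bp from a listed cytosine. Over the gene and its 5 kb upstream, 17 cytosines in 10 read groups had 24.4% ± 23.9 (SD) in XX and 38.9% ± 19.4 (SD) in XO (-14.5 points). The 11 upstream cytosines differed by -18.1 points (16.4% and 34.5%). The 6 exonic ones had 39.1% and 46.9% (-7.79 points), among them a CpG at 12.2% and 41.7% on the forward strand but 90.0% and 50% on the reverse strand.

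Igf2 (chr7:142650766-142666816, reverse strand), the growth factor expressed from the paternal copy, had the most cytosines of any member, 240 in 53 read groups. Its mean was 14.7% ± 24.9 (SD) in XX and 19.3% ± 28.3 (SD) in XO (-4.65 points), and 37 read groups were lower and 15 higher in XX. Most of Igf2 was unmethylated, with medians over cytosines of 2.78% in XX and 6.67% in XO. The 110 cytosines around the start of transcript Igf2-205 had 3.89% in XX and 6.62% in XO. The 17 cytosines upstream of the gene were more methylated in both libraries than its coding exons, UTRs or introns, with 68.1% ± 20.04 (SD) in XX and 91.8% ± 10.4 (SD) in XO (-23.7 points). There, XX values ran from 36.0% to 100% and XO values from 70.0% to 100%, with 15 of 17 lower in XX and the other two at 100% in both libraries.

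Small read groups of Igf2 differed in opposite directions. Near the start of Igf2-208, 5 cytosines in a UTR had 10.2% in XX and 42.0% in XO (-31.8 points), with 12.3%, 26.4% and 12.3% against 24.8%, 46.7% and 25.0% on the forward strand, and 0% and 0% against 73.3% and 40% on the reverse strand. Near the start of Igf2-209, in contrast, 6 reverse-strand cytosines of 1 read group were higher in XX. They lie in coding sequence and are shown as the only start of a member at least 20 points higher in XX.
Igf2-209 (chr7:142655662-142655732): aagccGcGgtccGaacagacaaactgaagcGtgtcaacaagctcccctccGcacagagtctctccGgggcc

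Here the XX values from left to right were 53.3%, 69.2%, 73.3%, 73.3%, 86.7% and 73.3%. In XO they were 23.1%, 23.1%, 23.1%, 46.2%, 50% and 46.2%. XX averaged 71.5% and XO 35.3% (36.3 points), and the libraries did not overlap.

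Cdkn1c (chr7:143458339-143461050, reverse strand) encodes a cyclin-dependent kinase inhibitor that restrains growth and is expressed from the maternal copy. It was almost unmethylated in both libraries. Its 158 cytosines averaged 7.64% ± 13.7 (SD) in XX and 6.65% ± 11.5 (SD) in XO (1.00 points), with medians of 0% in both. XX was lower at 52 cytosines, higher at 50 and equal at 56, and 14 read groups were lower and 12 higher. The sign depended on the strand, at 3.70 points (forward) and -2.32 points (reverse). The 74 cytosines in coding exons had 5.85% ± 12.6 (SD) in XX and 1.38% ± 3.2 (SD) in XO, and 9 of them, in 1 forward read group, were at a mean of 30% in XX and 0% in XO.

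Phlda2 (chr7:143501545-143503150, reverse strand), a pleckstrin homology domain gene that limits placental growth, had 28.8% ± 30.9 (SD) in XX and 27.0% ± 25.4 (SD) in XO over 64 cytosines (1.84 points). That small mean covered read groups with large differences of both signs. The printed stretch is shown because it holds the 2 most extreme groups of the gene side by side, in coding sequence and the adjoining intron.
Phlda2 (chr7:143502021-143502189): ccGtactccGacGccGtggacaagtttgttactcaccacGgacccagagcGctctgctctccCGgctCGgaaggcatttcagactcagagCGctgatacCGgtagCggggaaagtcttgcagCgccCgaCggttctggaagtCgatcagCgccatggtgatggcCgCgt

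The left 7 reverse-strand cytosines had 41.7% to 66.7% in XX and 6.25% to 31.3% in XO, with means of 60.7% and 25.2% (35.5 points). The right 9 forward-strand cytosines had 21.1% to 26.3% in XX and 27.8% to 50% in XO, with means of 21.6% and 43.2% (-21.6 points). The 6 cytosines between them, read on both strands in other groups, were at 0% to 2.78% in XX and at 0% in XO. At the CpG where the left group ends, at chr7:143502083, the forward cytosine was at 0% in both libraries and the reverse one at 66.7% in XX and 20% in XO. By strand, Phlda2 differed by -5.27 points (forward) and 8.96 points (reverse).

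Tssc4 (chr7:143069249-143071093, forward strand), whose product takes part in assembly of a spliceosomal particle, was the member with the highest difference, 6.47 points over 38 cytosines in 7 read groups (23.8% ± 23.5 (SD) in XX, 17.3% ± 22.6 (SD) in XO). Both strands were higher in XX (11.6 points forward, 4.62 points reverse), yet 3 read groups were higher, 3 lower and 1 equal. The equal group and the one that differed most lie next to each other just upstream of the start and are shown for that contrast.
Tssc4 upstream (chr7:143069105-143069199): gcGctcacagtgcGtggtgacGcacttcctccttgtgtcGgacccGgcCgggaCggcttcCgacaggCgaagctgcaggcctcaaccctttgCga

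The left 5 cytosines, on the reverse strand, were at 0% in both libraries. The right 5, on the forward strand, were at 35.0%, 45.0%, 85.0%, 85.0% and 65.0% in XX and at 0%, 0%, 35.7%, 35.7% and 71.4% in XO. Of these, 4 were higher in XX, by 35.0 to 49.3 points, and the last differed by -6.43 points.

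**Figure D2:**
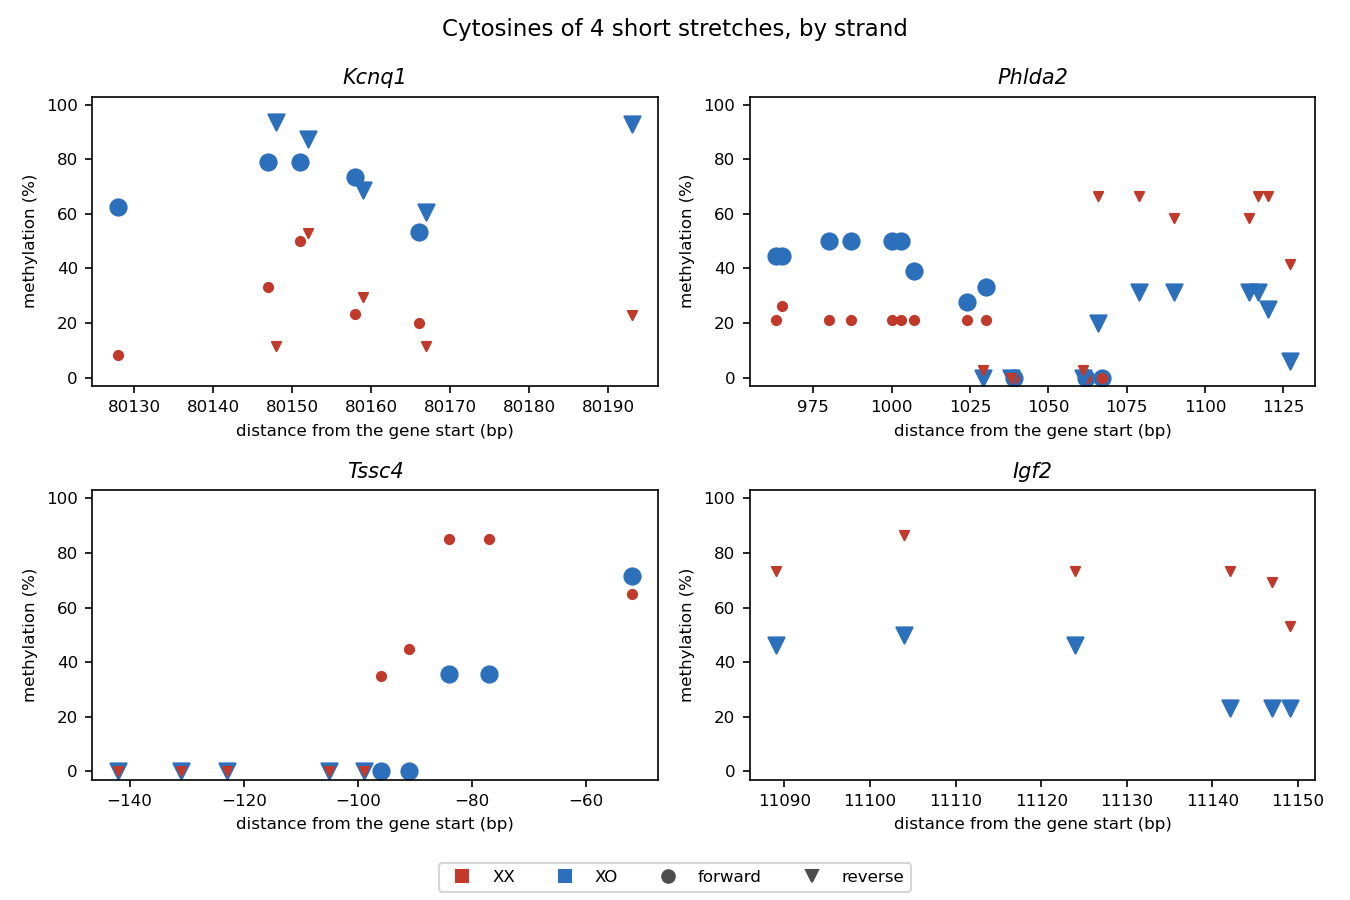
Methylation (%) of the cytosines in the printed stretches of Kcnq1, Phlda2, Tssc4 and Igf2 against distance (bp) from the gene start (for Igf2, its most upstream start), for XX (red, smaller) and XO (blue, larger), with the forward strand as circles and the reverse strand as triangles. XO lies above XX at all 10 Kcnq1 cytosines, XX lies above XO at all 6 Igf2 cytosines, and in Phlda2 and Tssc4 neighbouring read groups of the same gene differ.

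Slc22a18 (chr7:143473736-143499334, forward strand), a member of the organic cation transporter family, had 13.1% ± 16.8 (SD) in XX and 20.8% ± 17.6 (SD) in XO over 19 cytosines (-7.73 points), with 8 of 13 read groups lower in XX. Ascl2 (chr7:142966829-142969264, reverse strand), a transcription factor needed for the trophoblast, had 11.6% ± 18.7 (SD) in XX and 13.4% ± 13.6 (SD) in XO over 82 cytosines (-1.86 points), with 8 read groups lower, 8 higher and 4 equal. Its sign differed between the forward (1.04 points) and the reverse strand (-5.06 points). Nap1l4 (chr7:143513579-143549106, reverse strand), a histone chaperone gene, had 17.1% ± 19.6 (SD) in XX and 19.8% ± 23.0 (SD) in XO over 85 cytosines (-2.73 points). Yet XX was lower at 31 of these cytosines, higher at 40 and equal at 14, with 7 read groups lower, 6 higher and 4 equal. Here the start and the gene's far end differed. Around the start, 80 cytosines had 17.0% and 17.4% (-0.442 points), whereas 5 intronic cytosines near the end had 18.3% in XX and 57.6% in XO (-39.3 points). Those 5 were at 9.84% to 23.9% in XX and at 40% to 72.7% in XO on both strands, with no overlap.

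**Figure D3:**
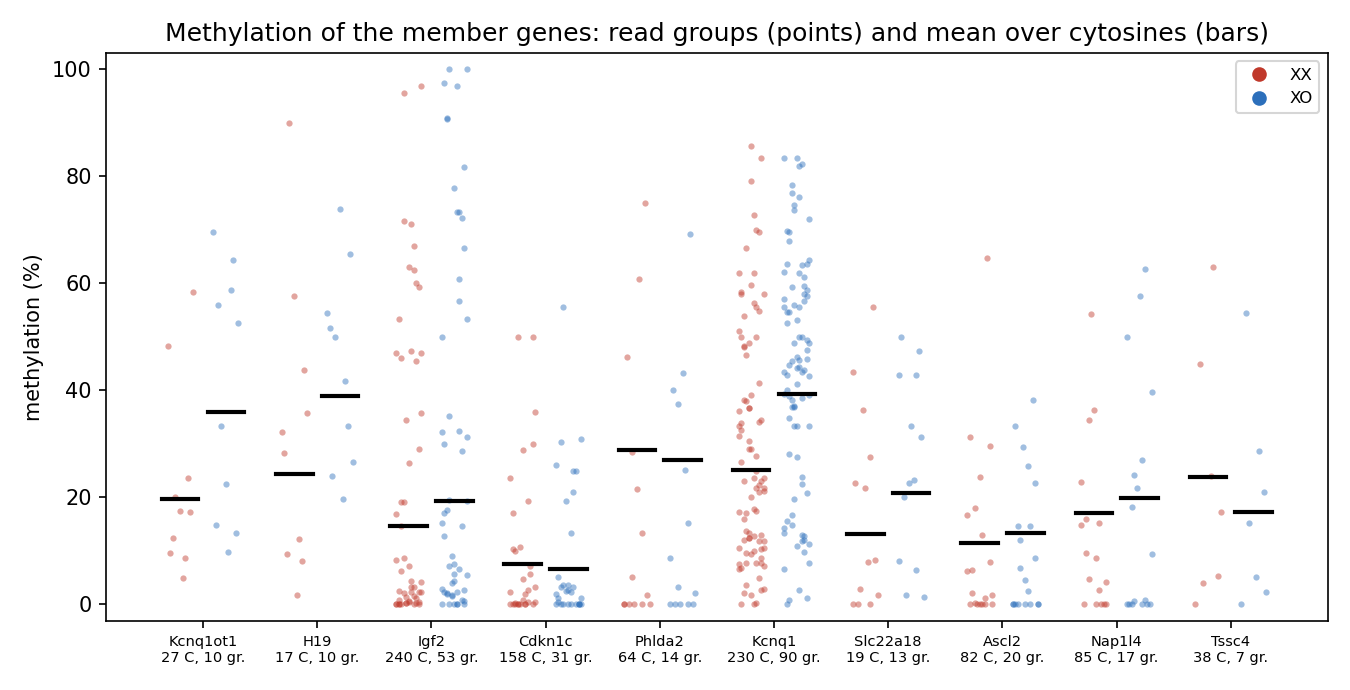
Methylation (%) of each member gene in XX (red) and XO (blue), where each point is the mean of 1 read group, each black bar the mean over the gene's cytosines, and the labels give the number of cytosines (C) and read groups (gr.). The bars of Kcnq1ot1, H19 and Kcnq1 lie 14.2 to 16.2 points lower in XX, while the points of every gene overlap between the libraries.

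By gene, then, 7 of the 10 members were lower and 3 higher in XX, and the median difference was -3.69 points. Among 31009 genes with at least 3 cytosines, 87.8% were lower in XX and the median was -7.22 points. No member gene was at least 20 points lower, beside 18.3% of all genes, or at least 20 points higher, beside 0.203%. The sign of Kcnq1ot1, Kcnq1, H19, Slc22a18 and Tssc4 was the same in all 7 other settings tried (either strand, 1 value per CpG or per read group, the median, no upstream stretch, or no cytosines at exactly 0 or 100 in both libraries). The median was 0 for Igf2, Cdkn1c, Phlda2, Nap1l4 and Ascl2, and the sign turned in 1 setting each for Cdkn1c, Phlda2 and Nap1l4 and in 2 for Ascl2.

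At transcription starts, taken 1 kb either side, the members had 55 distinct starts, of which 45 had at least 3 cytosines. Of these 45, 28 were lower and 17 higher in XX, beside 69.3% lower among all annotated starts with enough cytosines. Neighbouring starts shared cytosines, so the 45 made 29 distinct windows, with 19 lower and 10 higher in XX. Of the 45 starts, 2 were at least 20 points lower (Kcnq1ot1 and Igf2-208), beside 9.57% of all 65557 annotated starts with enough cytosines. The 1 start at least 20 points higher was Igf2-209, beside 0.447% of all starts. These 3 windows held 7, 5 and 6 cytosines in 1, 2 and 1 read groups, and no start with at least 10 cytosines passed 20 points in the lower direction. The median over the 45 starts was -0.840 points, beside -2.03 points over all starts.

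The other windows lay closer to 0. Those of Kcnq1 ran from -5.64 to -2.09 points, those of Ascl2 were -3.32 and -3.28 points, and that of Slc22a18-202 was -2.72 points. Cdkn1c starts ran from 0.162 to 5.61 points and Tssc4 starts were 6.47 and 6.64 points. Phlda2 starts ran from -0.840 to 3.48 points. For H19, starts with 6 to 9 cytosines ran from -16.8 to -7.79 points, and 3 cytosines shared by H19-201 and H19-207 gave 6.53 points. The remaining Igf2 starts ran from -15.8 to -2.73 points, and the most upstream one, Igf2-203, had no listed cytosine.

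**Figure D4:**
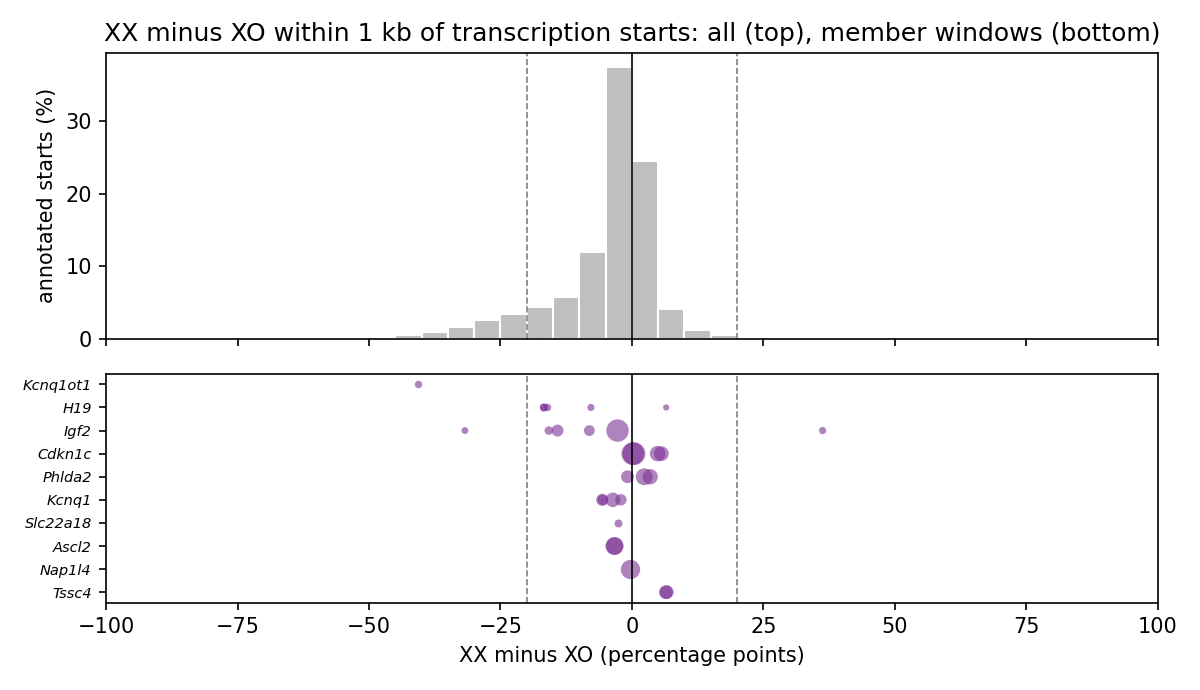
Top, share (%) of all 65557 annotated starts by their XX minus XO difference (percentage points, bins of 5) within 1 kb. Bottom, the 29 member windows by gene, with larger points for more cytosines and dashed lines at 20 points. Small windows of Kcnq1ot1 and Igf2 lie beyond the lines and windows with many cytosines lie near 0.

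Along the whole domain, 99 windows of 10 kb reached from 5 kb before H19 to 5 kb beyond Nap1l4. Of these, 35 held no cytosine and 49 held at least 3, of which 43 (87.8%) were lower in XX, beside 89.9% of autosomal windows. Windows at least 20 points lower numbered 12, or 24.5% of the 49, beside 37.9% of autosomal windows, and 0 were at least 20 points higher, beside 0.371%. The median difference was -13.5 points in the domain and -15.5 points on autosomes. Only 5 of the 12 held member cytosines, which were 4 windows in Kcnq1 and the far end of Nap1l4. The 4 were the 3 described with the printed intron stretch and 1 centred 29.0 kb from the Kcnq1ot1 start towards the Kcnq1 end. That last window had 17.5% in XX and 41.0% in XO over 25 cytosines. The other 7 of the 12 held no member cytosines, and 5 of them lay between Igf2 and Ascl2. Some of the 7 overlapped genes that are not members, such as Th and Tspan32. The 3 member windows with the highest difference were 1 in Kcnq1 with 3 reverse cytosines (69.6% in XX, 59.5% in XO), the Tssc4 window, and the window upstream of Cdkn1c (13.9% in XX, 9.94% in XO, 36 cytosines).

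**Figure D5:**
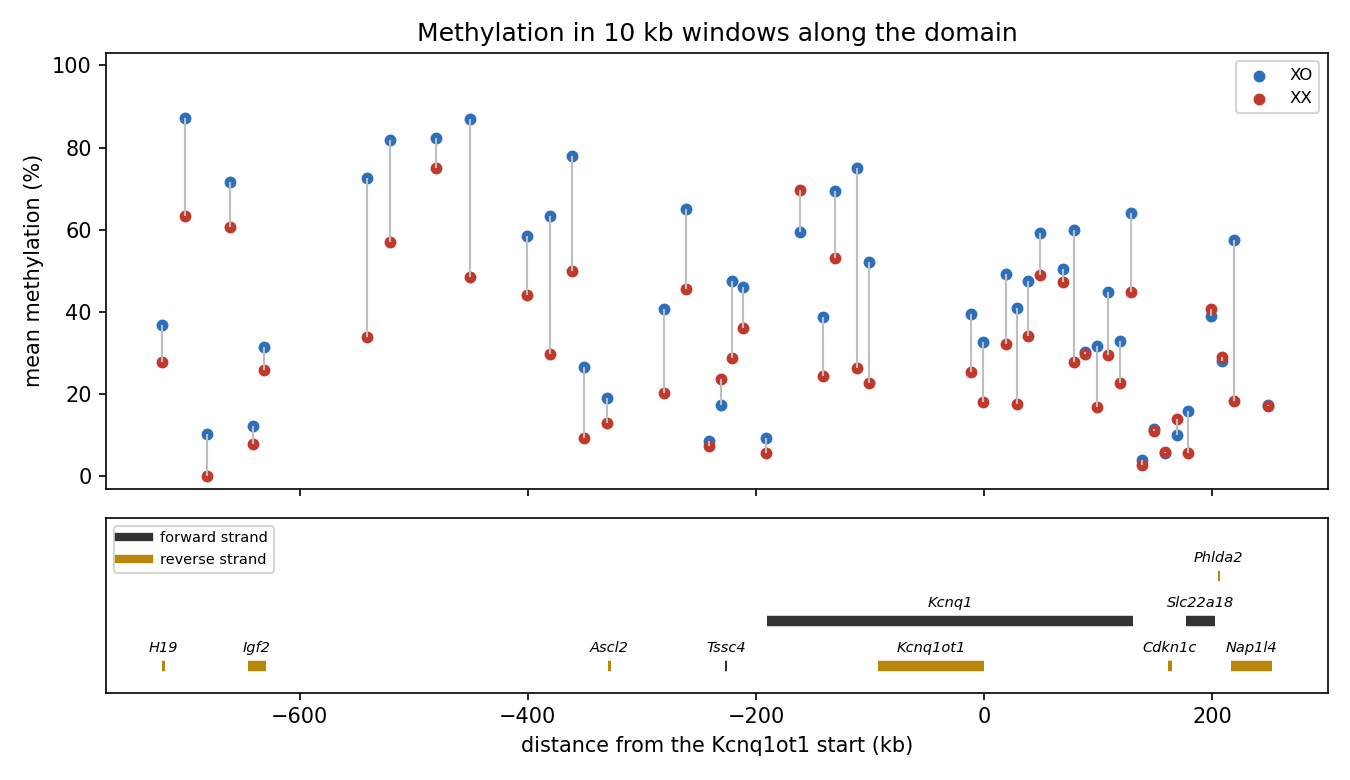
Top, mean methylation (%) of 10 kb windows with at least 3 cytosines against distance (kb) from the Kcnq1ot1 start, for XX (red) and XO (blue) joined by grey lines. Bottom, the member genes by strand. In 43 of 49 windows XO lies above XX, and at Cdkn1c and Phlda2 the points nearly coincide.

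Outside Kcnq1, the member difference was smallest in the class richest in CpGs, as on autosomes. In Kcnq1, with or without its first 5 kb, it was smallest in the poorest class. Member cytosines outside Kcnq1 with 10 or more CpGs within 100 bp (591 cytosines) differed by -0.449 points, beside -2.50 points on autosomes. Those with 5 to 9 differed by -9.62 points, beside -14.8, and those with fewer than 5 by -10.4 points, beside -18.05. Members were richer in the first class, with 74.4% of cytosines against 58.9% on autosomes.

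Both strands of the same CpG were listed for 216 member CpGs, which gives a view of how closely separate reads agree. The strands differed by a median of 4.57 points in XX and 5.06 points in XO, beside 3.23 and 4.17 points over 426739 CpGs of the genome. For the difference itself the median gap between strands was 8.84 points, beside 5.88 points over the genome. Of 55 member CpGs at least 20 points lower in XX on either strand, 18 were so on both, beside 25857 of 83891 over the genome. The Kcnq1 intron and the end of Nap1l4 were lower in XX on both strands, whereas the Kcnq1ot1 start and Igf2-209 were read on 1 strand only.

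For comparison, 17 genes between and beside the members were measured in the same way. Of the 16 with at least 3 cytosines, 15 were lower in XX, with a median of -8.63 points. Their 496 cytosines outside the member regions had 21.1% in XX and 29.0% in XO (-7.92 points). Tnnt3, a troponin gene beyond H19, had the largest difference among those with at least 10 cytosines (34.4% in XX, 58.3% in XO, 11 cytosines, -23.9 points). Trpm5, a cation channel gene next to Tssc4, was the 1 higher gene (28.4% in XX, 25.2% in XO, 3.20 points), and 33 of its 41 cytosines were shared with members.

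Finally, the annotated gene starts of 15 other imprinted genes linked to maternally methylated control regions were set beside Kcnq1ot1. Whether each of these starts lies in its control region was not checked. Of these, 12 had at least 3 cytosines within 1 kb, and 10 of the 12 were lower in XX. Their differences ran from -24.7 to 3.0 points with a median of -12.4. The higher ones, Plagl1 (15.5% in XX, 12.5% in XO) and Impact (6.08% and 3.73%), had low methylation in both libraries. The Kcnq1ot1 value of -40.7 points within 1 kb lay below this range, and its value of -14.8 points within 2 kb lay inside the range of 13 such starts at that width (-22.8 to 3.0, median -9.21). Airn, the noncoding RNA of the Igf2r domain, had the largest difference of these (15.6% in XX, 40.4% in XO, 14 cytosines). Of the 12, Peg13 had the highest XO level, 45.5% beside 25.5% in XX, and the XO level of Kcnq1ot1 within 1 kb, 64.3%, was above it.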

How the data were processed

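RRBS libraries had been made with a NuGEN Ovation Methylseq kit from sorted XX and XO Xmas mESCs, 1 library per karyotype. The submitters' processing notes name bcl2fastq, Bismark and the build mm10. Their versions, roles and any coverage minimum are not given in the sources used here. The values the authors deposited are, per cytosine and library, the percent of its reads found methylated, with 0 missing values and 0 further columns of sample values. Strands were not labelled and were read from the GRCm38 reference. No read counts were used, so the depth and hence the precision of each percent are unknown.

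All 1782730 positions were kept. Genes and starts were from GENCODE M21, and promoters and sequence from RefSeq (GRCm38). Means were taken over cytosines, and a gene, start or window needed at least 3. A change was called at 20 points. With 1 library per karyotype no test was possible. The members, the lists of neighbouring genes and of starts compared with Kcnq1ot1, and the rules were chosen with earlier results of these data known. Read groups were defined after the data were seen. By rule, the text names every member gene and each cytosine at the Kcnq1ot1 start and in the H19 stretch. Member starts with at least 3 cytosines are given by name or through a value or range for their gene. Also named are the neighbouring gene with the largest difference in each direction (at least 10 cytosines), and the 5 member windows with the lowest and the 3 with the highest difference. Single read groups of Igf2, Cdkn1c, Phlda2, Tssc4 and H19, cytosines upstream of Igf2, and Airn and Peg13 were named after their values were seen. The code was checked on simulated data. The versions were matplotlib 3.10.9, pandas 2.3.3, numpy 2.4.6 and Python 3.11.15.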

Additional observations from a re-analysis of the deposited data

How the results depend on the processing

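The domain difference of -4.96 points became 0 as a median over cytosines and -1.95 points when Kcnq1 was left out, and it stayed within 1.5 times of its value in the other 18 of 20 settings, from -7.42 points with each read group counted once to -4.26 points on the forward strand. The Kcnq1ot1 start difference of -40.7 points became -14.8 points within 2 kb and -11.7 points within 2 kb with each read group counted once, because 14 further cytosines entered. It could not be computed within 500 bp or on the forward strand, where no cytosine was listed. Members lower in XX numbered 7 of 10, and 4 by medians. The 2 starts at least 20 points lower became 9 at 10 points, 0 with at least 10 cytosines and 1 with the gene's own start only. The 176 cytosines at least 20 points lower became 306 at 10 points and 97 at 30 points. Counted as read groups they were 63 of 255, beside 171577 of 535755 autosomal read groups. Shares over all starts or cytosines at 10 and 30 points are not given here, so those counts have no background beside them. Counting read groups, the 2 kb window with read groups and leaving out single members were chosen after seeing the data. Of 70 gene values under other settings, 31 moved by more than 1.5 times or changed sign. With 1 library per karyotype and no read counts, differences at 5 to 7 cytosines of 1 or 2 read groups cannot be told from sampling noise. No paired analysis was possible because each karyotype has 1 library and no result comes from a test.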
